A study of Mus musculus with 6 samples.

Results

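Innate sensing genes were read in locus coeruleus tissue of 5xFAD and wild-type (WT) mice. They are 10 genes out of 56923 in the deposited table, chosen by name: the Toll-like receptors Tlr2, Tlr4 and Tlr7, the co-receptor Cd14, the inflammasome genes Nlrp3 and Casp1, the cytokine Il18, the NF-kappaB genes Nfkb1 and Nfkbia, and the chemokine Cxcl16. All 10 were found by Ensembl identifier. The locus coeruleus, a small nucleus of the pons, is the main source of noradrenaline in the brain, and the series title concerns tau, sleep and excitable neurons there. Punches gave 3 5xFAD libraries (64, 65 and 79) and 3 WT libraries (62, 63 and 66), sequenced as bulk poly-A RNA. 5xFAD mice carry transgenes with familial Alzheimer's disease mutations under Thy1 regulatory sequence, which acts mainly in neurons, and they deposit amyloid. Age, sex and strain background are not stated in the labels, and nothing says that libraries came from separate animals, so p-values measure only the spread between these samples, which may be technical.

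Toll-like receptors recognise microbial products and molecules released by damaged cells. They signal through the adaptor Myd88 to kinases that release NF-kappaB from its inhibitor, IkappaB-alpha, and NF-kappaB then induces cytokines, chemokines and its own inhibitor. Nlrp3 is a cytosolic sensor that assembles an inflammasome, in which caspase-1 becomes active and cuts interleukin-1 beta and interleukin-18 into their secreted forms. In the brain most of these genes are expressed mainly in microglia, the resident macrophages, and amyloid is known to engage several of them.

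The libraries held 15158712 to 17774759 reads assigned to genes in 5xFAD tissue and 17362733 to 20079349 in WT tissue. The noradrenergic markers Th, Dbh, Slc6a2 and Slc18a2 were present in every library, Dbh for instance at 1879 to 2895 normalized counts in 5xFAD and 1281 to 2492 in WT libraries. A normalized count is the read count divided by the size factor of its library. Neighbouring tissue was read too. The 3 granule cell markers of the cerebellum summed to 1251 to 4859 in 5xFAD and 268 to 3597 in WT libraries, and the choroid plexus markers stood apart in WT 66 at 1231, against 60.4 to 109 in the other 5 libraries. Over all 16411 tested genes the limma test called 1 gene (0.00609%), Thy1, whose regulatory sequence is part of the transgenes. The part of the transgenes in that call was not tested.

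None of the 10 genes was called as different between the genotypes. Of the 9 that could be tested, 0 passed in limma (adjusted p = 0.9995 for each) against the background of 0.00609%, and 0 had an unadjusted p under 0.05, where 2.32% of all tested genes did. On the recovered reads, edgeR called 0 of the 9 (background 0.00609%), with 0 at an unadjusted p under 0.05 (background 2.3%). DESeq2 called 0 of the 9 (background 0.0244%), with 0 at an unadjusted p under 0.05 (background 0.926%). The authors' deposited table calls 0 of the 10 (background 0.0106%). Values were higher in 5xFAD for 7 genes and lower for 2, with a median log2 ratio of 0.09. The log2 ratio is the mean of log2(normalized count + 1) in 5xFAD minus that in WT libraries, a scale that understates differences of low genes. Over all tested genes 50.2% had higher values and the median was 0.00053. The median of the 9 genes depended on single libraries, with 0.31 without WT 66, 0.28 without WT 62, 0.21 without 5xFAD 79 and 0.14 without 5xFAD 65. For 0 of the 10 genes were the 3 5xFAD libraries all above or all below the 3 WT libraries, against 7.42% of all tested genes.

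**Figure D1:**
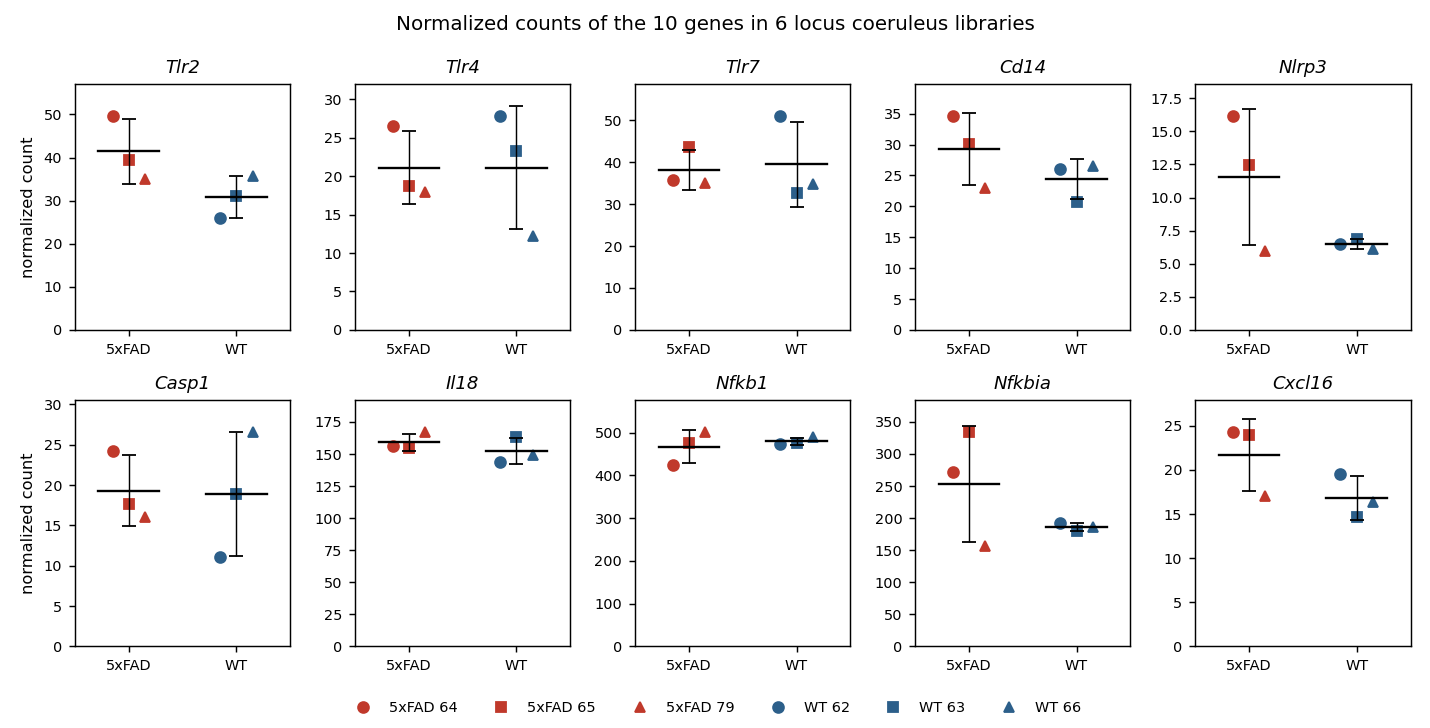
Normalized counts (vertical axis, from 0) of the 10 genes in the 3 5xFAD libraries (red, left) and the 3 WT libraries (blue, right); lines are means and bars are SDs. In every panel the groups overlap, and for Nlrp3 and Nfkbia the libraries 5xFAD 64 and 65 lie above the WT libraries while 5xFAD 79 lies below them.

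The promoters of 3 of these genes are shown first, because they carry a match to the sequence that NF-kappaB binds. RefSeq windows (GRCm38.p6, which is not the authors' build) were at hand for 5 of the 10 genes: Tlr2, Casp1, Il18, Nlrp3 with 2 starts, and Nfkbia. The 250 bases before each start were searched on both strands for the kappaB consensus, GGGRNYYYCC. Here R is A or G, Y is C or T, and N is any base. The capitals mark the consensus match, and the start follows the last base.
Nfkbia, chr12:55492648-55492897 (minus strand): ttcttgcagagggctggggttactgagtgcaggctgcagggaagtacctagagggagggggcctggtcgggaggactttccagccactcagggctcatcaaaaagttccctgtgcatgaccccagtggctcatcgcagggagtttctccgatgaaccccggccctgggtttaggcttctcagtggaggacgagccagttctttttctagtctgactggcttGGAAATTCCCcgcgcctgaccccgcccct
Tlr2, chr3:83841609-83841858 (minus strand): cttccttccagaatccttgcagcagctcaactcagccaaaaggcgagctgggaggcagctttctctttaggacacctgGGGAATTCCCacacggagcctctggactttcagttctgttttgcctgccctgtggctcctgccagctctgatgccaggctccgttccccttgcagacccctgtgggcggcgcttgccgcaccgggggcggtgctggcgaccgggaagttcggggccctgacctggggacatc
Nlrp3, chr11:59541319-59541568 (plus strand): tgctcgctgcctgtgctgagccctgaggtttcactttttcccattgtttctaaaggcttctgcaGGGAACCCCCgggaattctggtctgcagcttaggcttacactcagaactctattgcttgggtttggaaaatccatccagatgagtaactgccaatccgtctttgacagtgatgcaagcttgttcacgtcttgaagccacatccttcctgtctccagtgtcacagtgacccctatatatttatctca
In Nfkbia the match lies on the reverse strand, 19 bases before the start, where it reads GGGAATTTCC. The Tlr2 match is a palindrome, GGGAATTCCC, 162 bases before the start, and the Nlrp3 match lies 176 bases before the upstream of its 2 starts. Over all 32851 windows of this length, 5.00% held the consensus. A match is a description of letters, not a site shown to be bound. The windows of Casp1, Il18 and the other Nlrp3 start did not hold it.

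Levels differed widely among the 10 genes. Per kilobase of merged exon, Il18 was the highest at a mean of 151 normalized counts per kb over the 6 libraries, followed by Nfkbia at 137 and Nfkb1 at 39.3. The ranges of Il18 and Nfkbia over the libraries overlapped, and both lay above that of Nfkb1. Cd14 followed at 15.5 per kb, Casp1 at 12.8, Tlr2 at 12, Tlr7 at 9.51, Cxcl16 at 6.38, Tlr4 at 3.80 and Nlrp3 at 2.23. From Cd14 down each gene's range overlapped that of its neighbour in this order. All of Cd14 to Nlrp3 lay below Nfkb1, and the 12 microglial markers ranged from 24.6 to 749 normalized counts per kb. Merged exons can overstate transcript length, so the order is approximate.

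**Figure D2:**
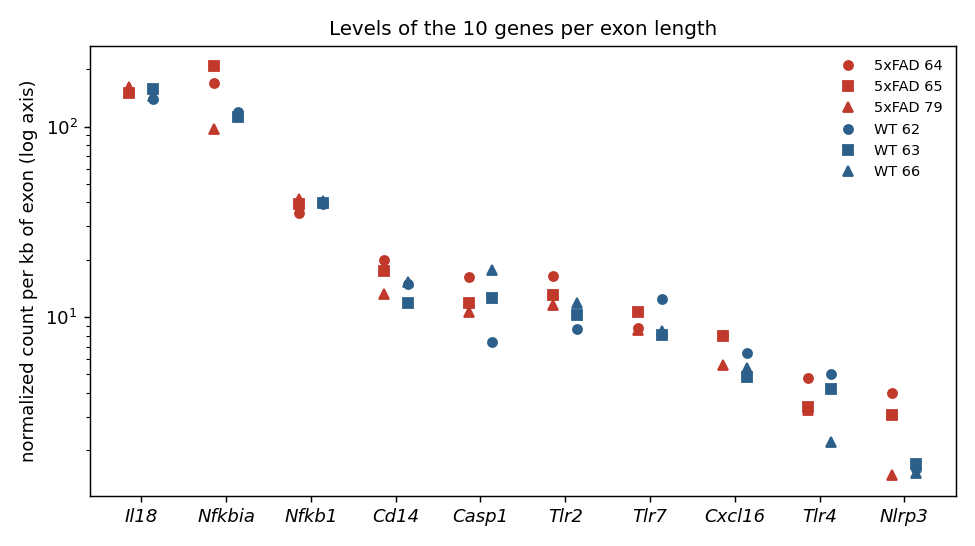
Normalized counts per kb of merged exon (log axis) for the 10 genes, from the highest mean to the lowest, with each library as a point (5xFAD red, left; WT blue, right). Il18 and Nfkbia lie above Nfkb1, and Nlrp3 is the lowest at a mean of 2.23 per kb.

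The surface receptors came first in the order of the pathway. Tlr2 (ENSMUSG00000027995.11), which recognises bacterial lipoproteins with Tlr1 or Tlr6 and has been linked to amyloid sensing, had 49.7, 39.5 and 35 normalized counts in 5xFAD, against 26, 31.0 and 35.7 in WT libraries. The 5xFAD libraries 64 and 65 lay above all WT libraries, but 79 lay below WT 66. Its log2 ratio was 0.41 (SE 0.24, 95% interval −0.13 to 0.94) in limma, the largest of the 9 tested genes, and its interval included 0. Leaving out 1 library at a time gave 0.27 to 0.52.

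Tlr4 (ENSMUSG00000039005.14), the receptor for bacterial lipopolysaccharide, had 26.6, 18.7 and 18 normalized counts in 5xFAD, against 27.9, 23.2 and 12.3 in WT libraries. The WT libraries spanned the 5xFAD ones. The means were 21.1 ± 4.76 in 5xFAD and 21.1 ± 8.01 in WT (SD, n = 3 each), and the log2 ratio of 0.05 (SE 0.36) turned to −0.02 in edgeR, −0.01 in DESeq2, −0.12 without 5xFAD 64 and −0.28 without WT 66. Cd14 (ENSMUSG00000051439.8) hands lipopolysaccharide to Tlr4. It had 34.7, 30.2 and 23.0 normalized counts in 5xFAD, against 26, 20.6 and 26.5 in WT libraries. Only 5xFAD 64 and 65 exceeded every WT library, and the log2 ratio was 0.24 (SE 0.26, 95% interval −0.35 to 0.83).

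Tlr7 (ENSMUSG00000044583.14) sits in endosomes and recognises single-stranded RNA. It had 35.8, 43.7 and 35 normalized counts in 5xFAD, against 51.1, 32.7 and 34.7 in WT libraries, where WT 62 was the highest of all. Its log2 ratio was −0.03 (SE 0.24, 95% interval −0.57 to 0.52), which turned to 0.17 without WT 62, 0.01 without 5xFAD 64 and 0.03 without 5xFAD 79.

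The inflammasome genes were close to the limit of what this depth can measure. Nlrp3 (ENSMUSG00000032691.15) had 14, 12 and 6 reads in 5xFAD, against 7, 8 and 6 reads in WT libraries. As normalized counts these are 16.2, 12.5 and 6.00 in 5xFAD, against 6.50, 6.88 and 6.13 in WT. 5xFAD 64 and 65 were above every WT library and 79 was below every one. Nlrp3 reached 10 normalized counts in those 2 libraries alone, under the 3 required, and it was not tested. The plain difference of its mean log2 values was 0.65, and 1.02 without 5xFAD 79 or 0.37 without 5xFAD 64. In the authors' deposited table its log2 fold change was 0.82 (SE 0.72), with the sign turned to 5xFAD over WT.

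Casp1 (ENSMUSG00000025888.7), the protease of the inflammasome, had 24.3, 17.7 and 16.0 normalized counts in 5xFAD, against 11.1, 18.9 and 26.5 in WT libraries. The WT libraries held both its lowest and its highest value. The log2 ratio was 0.09 (SE 0.36, 95% interval −0.73 to 0.91), which turned to −0.23 without WT 62 and −0.08 without 5xFAD 64. Il18 (ENSMUSG00000039217.14), the precursor that caspase-1 cuts, had 156, 155 and 167 normalized counts in 5xFAD, against 144, 163 and 149 in WT libraries. The groups overlapped closely, and a log2 ratio of 0.07 (SE 0.11, 95% interval −0.19 to 0.32) had an interval within 1.5-fold in either direction. Il18 overlaps Bco2 on the opposite strand, which read 20.8 to 34.7 normalized counts, and with no strand setting known for the counting, part of its count is uncertain.

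The NF-kappaB genes differed in how steady they were. Nfkb1 (ENSMUSG00000028163.18) encodes p105, the precursor of the p50 subunit. It had 425, 476 and 501 normalized counts in 5xFAD, against 474, 477 and 489 in WT libraries. The WT libraries lay within the 5xFAD range, and the log2 ratio was −0.04 (SE 0.08, 95% interval −0.22 to 0.14), turning to 0.03 without 5xFAD 64. Nfkbia (ENSMUSG00000021025.9) encodes IkappaB-alpha, the inhibitor that NF-kappaB itself induces. It had 272, 334 and 156 normalized counts in 5xFAD, against 193, 181 and 186 in WT libraries.

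5xFAD 64 and 65 lay above all WT libraries for Nfkbia, and 5xFAD 79 lay below all of them. The mean was 254 ± 90.2 in 5xFAD and 187 ± 6.28 in WT (SD, n = 3 each), so the spread was wide in the transgenic group alone. The log2 ratio was 0.37 (SE 0.26, 95% interval −0.23 to 0.97; limma adjusted p = 0.9995). It was 0.69 without 5xFAD 79 (limma adjusted p = 0.876) and 0.14 without 5xFAD 65. Nfkbia did not pass in either case, although its unadjusted limma p was under 0.05 without 5xFAD 79. The share of all genes under 0.05 in that setting was not computed. With all libraries the ratio was 0.44 in edgeR (unadjusted p = 0.12) and 0.44 in DESeq2 (unadjusted p = 0.053).

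Cxcl16 (ENSMUSG00000018920.12) is a chemokine made as a membrane protein, which the protease Adam10 sheds, and its receptor is Cxcr6. It had 24.3, 23.9 and 17.0 normalized counts in 5xFAD, against 19.5, 14.6 and 16.3 in WT libraries. 5xFAD 64 and 65 again lay above all WT libraries, and 79 lay among them. The log2 ratio was 0.34 (SE 0.29, 95% interval −0.31 to 0.998). Cxcl16 overlaps Zmynd15 on the opposite strand, which read 3.71 to 12.3 normalized counts, so part of its count is uncertain.

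The 3 5xFAD libraries were not alike across the 10 genes. Of the 3, library 79 held the lowest value for 8 genes, and 64 held the highest for 6. 5xFAD 64 was also the shallowest library, with 15158712 reads. In the WT group, 62 was lowest for 4 genes, 63 for 4 and 66 for 2. Within 5xFAD the summed granule cell markers were 2775 in 64, 4859 in 65 and 1251 in 79, and within WT they were 268 in 62, 3597 in 63 and 479 in 66. The part of cerebellar tissue in these values was not tested.

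The intervals state what these libraries could show. In limma all 9 tested genes had a 95% interval within 2-fold in either direction, as did 87.9% of all tested genes. Cxcl16 came closest to that bound, at 0.998 on the log2 scale. The authors' deposited SEs were larger for low genes, at 0.48 for Cxcl16 and 0.52 for Casp1, against 0.29 and 0.36 in limma. The 2-fold bound therefore holds for the limma scale only. Within 1.5-fold it was 3 of the 9 (Tlr7, Il18 and Nfkb1), against 71.4% of all tested genes. The median half-width of the interval was 0.59 for the 9 genes and 0.25 for all tested genes on the log2 scale. In 6 of the 9 genes no library held more than 55 reads. Fewer cells of a type and less RNA per cell cannot be told apart in bulk tissue.

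**Figure D3:**
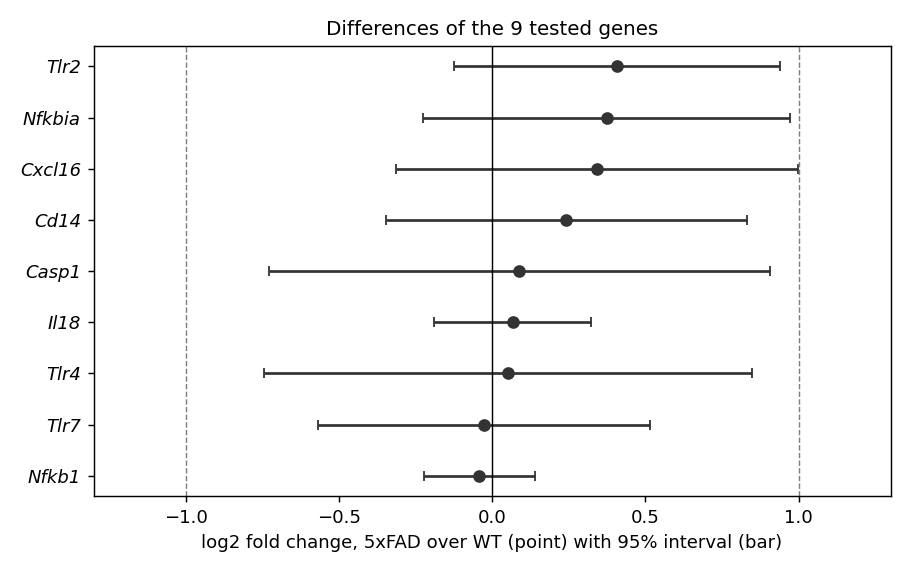
Log2 ratio of the 9 tested genes, 5xFAD over WT (points), with 95% intervals from limma (bars); dashed lines mark 2-fold. Every interval spans 0 and lies within the dashed lines, and those of Nfkb1 and Il18 are the narrowest.

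None of the other tested genes of the pathway was called. Of 107 genes in 6 lists, the 10 included, 76 passed the filter on low values, of which 0 were called in limma and 0 had an unadjusted p under 0.05, against 0.00609% and 2.32% of all tested genes. The edgeR test likewise called 0 (background 0.00609%), with 0 at an unadjusted p under 0.05 (background 2.3%). DESeq2 called 0 (background 0.0244%), with 1 of the 76, Il33, at an unadjusted p under 0.05 (background 0.926%). Values were higher in 5xFAD for 47 and lower for 29, with a median log2 ratio of 0.03. Over all tested genes 50.2% had higher values. The limma 95% interval lay within 2-fold for 65 of the 76, against 87.9% of all tested genes. It lay within 1.5-fold for 41 of the 76, against 71.4% of all tested genes.

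Among Toll-like receptors and their partners, 7 of 13 tested genes had higher and 6 lower values (median log2 ratio 0.04). Ly96 encodes MD-2, the part of the Tlr4 complex that holds lipopolysaccharide. It had 20.8, 25.0 and 19.0 normalized counts in 5xFAD, against 11.1, 7.74 and 20.4 in WT libraries (log2 ratio 0.77, SE 0.38). WT 66 lay within the 5xFAD range, and without it the value was 1.12. Tlr5, the flagellin receptor, had 9.24, 10.4 and 13.0 normalized counts in 5xFAD, against 12.1, 21.5 and 21.4 in WT libraries (log2 ratio −0.67, SE 0.36). Ly86, which partners the receptor homologue Cd180, had 99.4, 86.3 and 89.0 normalized counts in 5xFAD, against 85.4, 61.1 and 80.7 in WT libraries (log2 ratio 0.28, SE 0.18). Its 5xFAD libraries were all above the WT ones, as for 3.72% of all tested genes. Tlr9, the endosomal receptor for unmethylated DNA, had no overlap in the other direction (log2 ratio −0.33), and neither passed the test. Tlr3, the endosomal receptor for double-stranded RNA, had 410, 317 and 475 normalized counts in 5xFAD and 490, 401 and 574 in WT libraries (log2 ratio −0.29, SE 0.18). Unc93b1, which carries receptors to endosomes, had a log2 ratio of −0.0042 (SE 0.21), which turned to 0.24 without WT 66. At the other end Tlr11 was at 0 in all 6 libraries, and Tlr1, Tlr6, Tlr8 and Tlr12 were under the filter at 10.4 normalized counts or less.

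All 17 adaptors and kinases below the receptors were tested, with 10 higher and 7 lower values and a median log2 ratio of 0.00377. Among them the adaptor Ticam2, with 6 to 14 reads a library, had an interval reaching beyond 2-fold (−1.08 to 0.72). Myd88, the shared adaptor, had 75.1, 102 and 120.0 normalized counts in 5xFAD, against 71.5, 84.3 and 84.7 in WT libraries (log2 ratio 0.28, SE 0.19). The groups overlapped through 5xFAD 64. The kinase Irak2 had a log2 ratio of 0.19 (SE 0.13) and the ubiquitin ligase Traf6 one of 0.17 (SE 0.11). Tollip, an inhibitor of the receptors, and the ubiquitin ligase Traf3 had log2 ratios of 0.01 (SE 0.05) and −0.02 (SE 0.07), and the sign of each turned when single libraries were left out. The 95% interval lay within 1.5-fold for 13 of the 17, against 71.4% of all tested genes. For the Toll-like receptors and partners it did so for 2 of 13, and for the inflammasome genes for 5 of 12. For the interleukin-1 family it was 4 of 6, and for the inflammatory products 4 of 9.

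Of the inflammasome genes, 12 of 19 were tested, with 8 higher and 4 lower values (median log2 ratio 0.04). Nlrp10 had the largest difference of this list, 6.93, 20.8 and 12 normalized counts in 5xFAD against 0.93, 16.3 and 1.02 in WT libraries (log2 ratio 1.69, SE 0.87). The groups overlapped, since WT 63 exceeded both 5xFAD 64 and 79. The granule cell markers were also high in WT 63, and their part in the Nlrp10 values was not tested. Gsdmd, the pore protein that caspase-1 activates, had a log2 ratio of 0.36 (SE 0.31), and the bacterial sensor Naip2 one of −0.28 (SE 0.27). Nek7, a kinase that Nlrp3 needs, had a log2 ratio of 0.03 (SE 0.07). Txnip, a thioredoxin inhibitor that can bind Nlrp3, had 475, 635 and 218 normalized counts in 5xFAD, against 351, 274 and 339 in WT libraries. As for Nfkbia, 5xFAD 64 and 65 lay above every WT library and 79 below every one, and the log2 ratio was 0.34 (SE 0.41).

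The interleukin-1 family was for the most part close to 0. Only 6 of 13 genes passed the filter, and Il1b, the main product of the inflammasome beside Il18, had 1.16, 1.04 and 2.00 normalized counts in 5xFAD, against 1.86, 0.86 and 0 in WT libraries. Il1rn was at 0 in all libraries. Il33, an alarmin of oligodendrocytes and astrocytes, had 2169, 1624 and 1911 normalized counts in 5xFAD, against 2294, 1999 and 2370 in WT libraries. Its log2 ratio was −0.23 (SE 0.11), and 5xFAD 64 lay above WT 63. Il18bp, the decoy that binds interleukin-18, had a log2 ratio of 0.11 (SE 0.17), and Il1rap, the shared co-receptor, one of 0.12 (SE 0.15). The receptor Il1r1 and the inhibitory receptor Sigirr had ratios of −0.07 (SE 0.24) and 0.17 (SE 0.36).

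The NF-kappaB subunits and regulators, Nfkb1 and Nfkbia included, had 11 higher and 8 lower values of 19 tested (median log2 ratio 0.03). The interval lay within 1.5-fold for 13 of the 19, against 71.4% of all tested genes. Traf2, a receptor adaptor, had a log2 ratio of 0.25 (SE 0.14), Nfkbid, a nuclear IkappaB protein, one of 0.45 (SE 0.37), and Tnip1, an inhibitor of the pathway, one of −0.15 (SE 0.13). The deubiquitinase Cyld had 2118 to 2280 normalized counts in 5xFAD and 2129 to 2206 in WT libraries (log2 ratio 0.03, SE 0.05), and the kinase Chuk had a log2 ratio of 0.05 (SE 0.07).

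Of the 20 genes of inflammatory products, 9 were tested, with 7 higher and 2 lower values (median log2 ratio 0.09). The other 11 were under the filter, with Tnf at 0 in all libraries. For a count of 0 in a single library, 3 reads were taken as an approximate upper bound from counting error alone. That is 3.00 to 3.47 normalized counts in a 5xFAD and 2.58 to 3.06 in a WT library. Il6, Ccl2, Ccl3, Ccl4, Ccl5, Cxcl1, Cxcl2 and Cxcl10 did not exceed 5.00 normalized counts in any library. When the filter on low values was dropped, 2 of 104 pathway genes, Ccl3 and Il6, had an unadjusted limma p under 0.05. With the filter 2.32% of all tested genes did, and the share without it was not computed. Of the 104 pathway genes tested that way, 0 passed in limma (lowest adjusted p = 0.955). Cxcr6, the receptor of Cxcl16, had 0 to 3.47 normalized counts. Adam10, the sheddase of Cxcl16, had 1758, 1703 and 1750 normalized counts in 5xFAD, against 1640, 1633 and 1628 in WT libraries. All 3 5xFAD libraries lay above all WT ones, as for 3.72% of all tested genes, and the log2 ratio was 0.09 (SE 0.05, limma adjusted p = 0.9995). Icam1, an adhesion molecule induced by NF-kappaB, had a log2 ratio of −0.43 (SE 0.34), and Birc3, a target that limits cell death, one of 0.32 (SE 0.27). Csf1, a growth factor of microglia, and the adhesion molecule Vcam1 had ratios of 0.09 (SE 0.09) and −0.09 (SE 0.08).

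**Figure D4:**
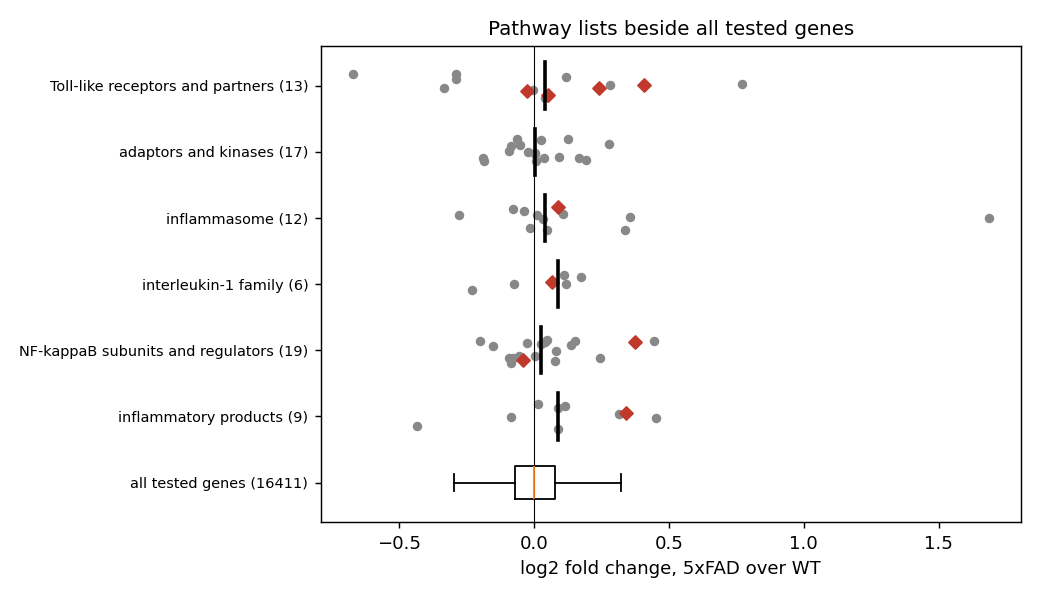
Log2 ratio, 5xFAD over WT, of the tested genes of each pathway list (number tested in brackets). Diamonds are the 9 tested genes of the 10 of interest, and vertical bars are list medians. The box shows the quartiles of all 16411 tested genes, with whiskers at the 5th and 95th percentiles. All list medians lie between 0.00377 and 0.09.

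Cell type markers were read beside these values. The 12 microglial markers, among them P2ry12, Tmem119 and Csf1r, summed to 4982, 4819 and 5131 normalized counts in 5xFAD, against 4873, 4565 and 5252 in WT libraries. The groups overlapped, 7 markers had higher and 5 lower values, 0 were called, and the median log2 ratio was 0.01. Border macrophage markers, which meningeal tissue carries, summed to 112, 145 and 104.0 in 5xFAD, against 98.4, 106 and 74.5 in WT libraries, with 2 of 6 tested and both higher. The 4 meningeal fibroblast markers were all higher and summed to 974, 1230 and 828 in 5xFAD, against 794, 729 and 943 in WT libraries. Of these, Lum, a matrix proteoglycan, had 58.9, 70.7 and 43.0 normalized counts in 5xFAD, against 23.2, 25.8 and 30.6 in WT libraries (log2 ratio 1.07, SE 0.25), and Col1a1, a collagen chain, had a log2 ratio of 0.41 (SE 0.14). For Lum and Col1a1 all 5xFAD libraries lay above the WT ones, as for 3.72% of all tested genes. Neither was called in limma, edgeR or DESeq2. The border macrophage and fibroblast sums were highest in 5xFAD 65, which also had the highest Nfkbia count, and their part in the values of the 10 genes was not tested. The 6 astrocyte markers summed to 29016, 28934 and 28243 in 5xFAD, against 26641, 26803 and 28364 in WT libraries, with 4 higher and 2 lower values. Gfap, the filament protein of reactive astrocytes, had 3074, 2397 and 2532 normalized counts in 5xFAD, against 1576, 2117 and 1493 in WT libraries. Its groups likewise did not overlap, with 5xFAD higher. The log2 ratio of Gfap was 0.63 (SE 0.15). It passed in DESeq2 (adjusted p = 0.0106, background 0.0244%) but not in limma (adjusted p = 0.9995) or edgeR (adjusted p = 0.9998). The part of astrocytes in the values of the 10 genes was not tested. Neutrophil and monocyte markers were at or near 0, with Ly6g and Camp at 0 in every library and sums of 1.16 to 10.4 in 5xFAD and 2.04 to 9.29 in WT libraries. Lymphocyte markers summed to 8.09 to 18 in 5xFAD and 8.60 to 13.9 in WT libraries.

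**Figure D5:**
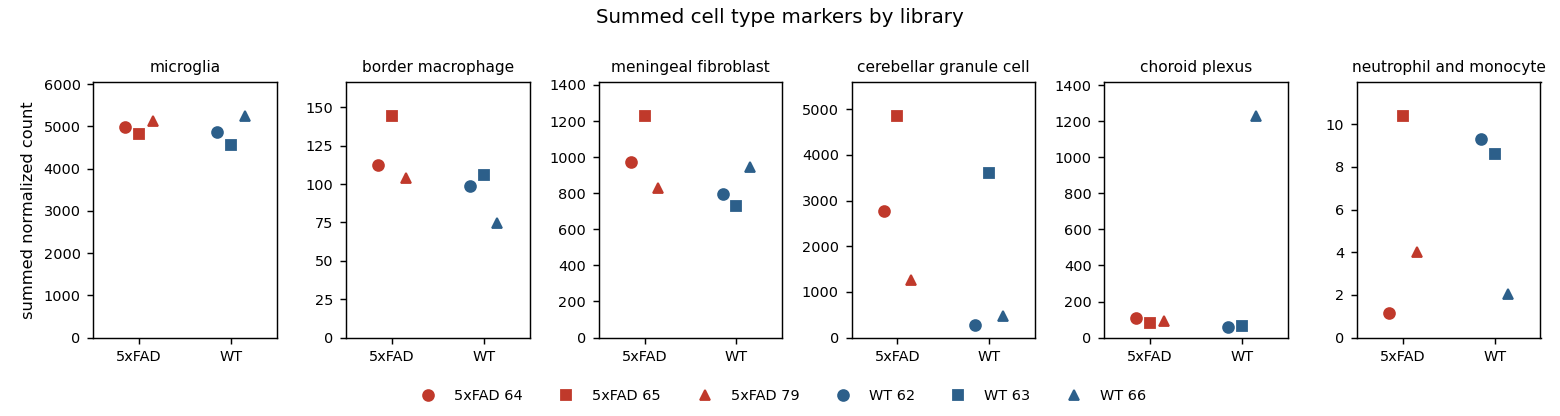
Summed normalized counts of the marker lists (vertical axis, from 0) in 5xFAD (red, left) and WT (blue, right) libraries. Microglial sums are level across the 6 libraries, at 4565 to 5252, while granule cell sums range from 268 to 4859.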

How the data were processed

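Locus coeruleus punches gave 3 5xFAD and 3 WT libraries, grouped by sample title. Per the labels' protocols, RNA came from frozen vibratome punches by TRIzol, and a TruSeq kit made poly-A libraries. STAR, RSEM, DESeq2 and mm39 are named in the submitters' processing notes, without roles. Annotation release and counting strand: not given in the sources used here.

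The deposited table is named as TPM, but it holds a signal that the authors computed: each value is a whole read count over a size factor, and 100% of values above 0 were whole multiples of a column's step (tolerance 0.001). It also holds the authors' log2 fold change (WT over 5xFAD), a test score and deposited p-values, unadjusted and adjusted. A reference table named 52073 of 56923 identifiers (91.5%).

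The main test was limma 3.58.1 in R 4.3.3 (2-sided, variance trend, robust moderation) on log2(normalized count + 1), for 16411 genes with at least 10 normalized counts in at least 3 libraries, adjusted by Benjamini-Hochberg at 0.05. Recovered reads also went through edgeR 4.0.16 and DESeq2 1.42.0. Other scalings, pseudocounts, filters and left-out libraries were tried. The limma, edgeR and DESeq2 steps were tested on simulated data. Tables and figures used Python 3.11.15 with pandas 2.3.3, numpy 2.4.6 and matplotlib 3.10.9.

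Members and lists were chosen with earlier results of these data known. Beyond the 10 genes, the rule named per pathway list the 3 genes of smallest unadjusted p and the 2 of highest mean, members aside; Tlr9, Il1b and the products near 0 were added after their values were seen. Exon lengths are merged GENCODE M21 exons on GRCm38, a different build from the authors'.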

Additional observations from a re-analysis of the deposited data

How the results depend on the processing

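Under every setting tried, 0 of the genes tested were called: 9 of the 10 genes in most settings, 10 without a filter and 3 at a floor of 50 normalized counts, and 74 to 76 of the 107 pathway genes in most settings, 104 without a filter and 46 at that floor. The count over all tested genes was 1, but 0 without the variance trend and robust moderation and 4 with DESeq2, and it ranged from 0 to 2 when 1 library was left out; the cause was not tested. The median log2 ratio of the measured genes ranged from 0.0818 to 0.305 over the left-out libraries. Over 40 single genes, 336 of 338 values under the other settings and 214 of 237 without a library kept their direction.

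The sign turned for 13 genes. Tlr4 was −0.0202 in edgeR and −0.0120 in DESeq2, and ranged from −0.280 to 0.282 without a library. Over the left-out libraries Tlr7 ranged from −0.146 to 0.168, Casp1 from −0.227 to 0.364, Nfkb1 from −0.0927 to 0.0251, Unc93b1 from −0.158 to 0.237, Tollip from −0.0130 to 0.0260, Traf3 from −0.0876 to 0.0334, Nek7 from −0.0245 to 0.0681, Il1rap from −0.0432 to 0.270, Il18bp from −0.0230 to 0.187, Il1r1 from −0.297 to 0.114, Sigirr from −0.0686 to 0.429 and Chuk from −0.00212 to 0.0925. Without a filter on low values Nlrp3 could be tested and its log2 ratio was 0.65 (SE 0.47; interval −0.32 to 1.62; adjusted p = 0.955 in limma). No paired analysis was possible because the groups share no replicate numbers.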

Other observations

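Pf4, Cbr2 and Ccl3, which lie outside the main test and are named after their values were seen, had groups that did not overlap. The border macrophage markers Pf4 and Cbr2 were under the filter on low values. Pf4, a chemokine of platelets and border macrophages, had 9.24, 13.5 and 9.00 normalized counts in 5xFAD, against 5.57, 0 and 3.06 in WT libraries. Cbr2, a carbonyl reductase, had 11.6, 13.5 and 9.00 normalized counts in 5xFAD, against 4.64, 5.16 and 5.10 in WT libraries. Ccl3, a chemokine that microglia release when stimulated, had 1.16, 4.16 and 5.00 normalized counts in 5xFAD, against 0.93, 0 and 0 in WT libraries, all at a few reads. The share of non-overlapping groups among genes under the filter was not computed, and among tested genes it was 7.42%. The groups overlapped for the other 4 border macrophage markers. Mrc1 had 53.2, 81.1 and 51.0 normalized counts in 5xFAD, against 53.9, 60.2 and 41.9 in WT libraries, and Cd163 had 26.6, 18.7 and 24.0 in 5xFAD, against 23.2, 25.8 and 12.3 in WT libraries. Lyve1 had 6.00 to 8.32 in 5xFAD and 4.08 to 9.29 in WT libraries, and Ms4a7 had 3.47 to 9.36 in 5xFAD and 1.86 to 8.17 in WT libraries.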
